A study of Rattus norvegicus with 6 samples.

Results

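The regions described here are the short-probe regions of a rat promoter array: stretches of promoter DNA in which more than 2/3 of the array probes have the shortest length the design uses, 45 nt. An array designed for even melting temperature places its shortest probes where the sequence is rich in G and C, so these regions stand for GC-rich promoters. Members were chosen from probe positions and lengths alone, with no signal used: probes were joined into 1 region wherever the step to the next was under 1000 bp, and those of chromosomes 1 to 20 with 3 to 99 probes were kept. Of 15284 such regions, 4276 (28.0%) were members, out of 16123 regions on the array and 16023 with enough probes to be tested. The GC content itself was not checked, because no sequence of the array's genome build (rn4) was used here. Gene names and annotation were not used either, so regions are given by rn4 coordinates and their place relative to exons or UTRs is not stated.

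Lumbar spinal cord was taken from 6 male rats of 220 to 250 g on day 14, with 3 sham-operated animals and 3 animals with chronic constriction injury (CCI). CCI is a model of neuropathic pain in which loose ligatures are tied around the sciatic nerve, whose sensory fibres enter the lumbar cord, while sham animals undergo the surgery without the ligatures. The strain, the age and the side of the cord sampled are not given in the sources used here. Each array carried 1 animal's methylated DNA, immunoprecipitated with an antibody (MeDIP) and labelled with Cy5 (the IP), beside the same animal's untreated genomic DNA labelled with Cy3 (the input), with no dye swap. Whole cord holds neurons, glia and vascular cells, so a change of methylation within cells and a change in the mix of cells cannot be told apart.

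Vertebrate DNA is methylated mostly at CpG, a cytosine followed by a guanine. Across most of the genome CpGs are few and methylated. GC-rich promoters often hold CpG islands, dense clusters of CpG that stay unmethylated in most tissues, and methylation of such an island is associated with silencing of its gene. The antibody used in MeDIP binds methylated cytosine and captures fragments more readily the more methylated CpGs they carry. The signal of a region therefore depends on the density of CpG as well as on the share methylated. A probe's brightness also depends on its own sequence and length, which is why the IP is read against the input.

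The 4276 members held 41412 probes, a median of 10 per region over a median span of 1669 bp (346 to 16255 bp), with starts 162 bp apart at the median. Of these probes 33282 (80.4%) were 45 nt long, against 48.7% of all 172669 probes on the array, and 411 members held no longer probe. Every member had a value on all 6 arrays, so no member was lost to a filter. Of the members' probes, between 86.2% and 88.6% gave an IP signal well above background. The shares for the input differed more between arrays: 51.6% on sham 1, 70.3% on sham 2, 73.8% on sham 3, 59.9% on CCI 1, 82.5% on CCI 2 and 50.6% on CCI 3. A probe below that mark has a bound rather than a measured level. All values below are log2, with each array's median over all probes set to 0, and a ratio is log2 of IP over input. The precision is limited by the number of arrays, 3 per group. By scan time and array position in the file headers, the 3 sham arrays and CCI 3 shared a slide, and CCI 1 and CCI 2 shared another.

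The design sets injured against sham cord, and the question was whether methylation read as the IP/input ratio differed at these promoters. No short-probe region passed the test: limma with Benjamini-Hochberg adjustment over all 16023 regions called 0 of 4276 members (0% of all regions tested), and the smallest adjusted p among members was 1.00. At the median a member differed by 0.00 between CCI and sham, against -0.02 over all regions tested, and it was above 0 in 50.1% of members, against 42.8% of all regions. The middle 90% of members lay between -0.21 and 0.17. The 95% interval of a member's difference reached 0.28 to either side at the median. At an unadjusted p under 0.05, limma gave 95 members (2.22%), 25 with a higher and 70 with a lower ratio in CCI, where it gave 2.63% of all regions tested (0.512% higher, 2.12% lower). Sham and CCI arrays were fully apart in 316 members (7.39%), 152 higher and 164 lower in CCI, against 7.2% of all regions (2.52% higher, 4.69% lower). The share of members called at the unadjusted threshold was thus near that of all regions. The count of 95 rested in part on single arrays: it was 197 without sham 1 and 55 without CCI 1. Its split depended on the scaling, with 58 higher and 45 lower under quantile normalization and 27 higher and 47 lower under loess. With slide as a block, where the difference comes from CCI 3 against the 3 sham arrays on its slide, the count was 179 and the direction turned, with 131 higher and 48 lower, a median difference of 0.07 and 0 called.

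The members nearest to a difference are given as values, since none passed. Among members without overlap, the 5 with the lowest p in each direction are described, with the ratio and both channels on every array. The region chr19:24753230-24754933 (10 probes, 7 of 45 nt) had a ratio of 0.83, 0.80 and 0.83 on sham 1 to 3 and 0.13, 0.22 and 0.41 on CCI 1 to 3. The 3 sham values lay close together and all CCI values lay below them. The difference was -0.56 ± 0.12 (SE; limma unadjusted p = 0.000471, adjusted p = 1.00). Its IP signal stood between -0.03 and 0.06 on all 6 arrays and was slightly higher on each CCI array. Its input signal was -0.49, -0.51 and -0.62 in sham and 0.14, 0.08 and -0.18 in CCI, so the groups were much farther apart in the input than in the IP, and in the opposite direction to the ratio. Between 2 and 8 of its 10 probes were well above background in the input, depending on the array.

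The other lower regions had the same arrangement of channels. In chr12:23697146-23698141 (6 probes) the ratio was 0.93, 0.96 and 0.83 in sham and 0.38, -0.01 and 0.47 in CCI, a difference of -0.63. Its IP differed by 0.00 and its input by 0.56, with between 0 and 5 probes well above background in the input. In chr9:6007657-6009379 (6 probes) the ratio was 0.34, 0.63 and 0.46 in sham and -0.02, 0.03 and -0.52 in CCI, a difference of -0.65 made of 0.08 in the IP and 0.66 in the input. CCI 3 was the lowest of its arrays, and the difference was -0.47 without it. In chr6:98774813-98776570 (10 probes) the ratio was 1.08, 1.01 and 0.92 in sham and 0.43, 0.56 and 0.75 in CCI, a difference of -0.42 beside -0.06 in the IP, without overlap, and 0.30 in the input. In chr18:74964125-74964635 (4 probes) the ratio was -0.30, -0.12 and -0.23 in sham and -0.57, -0.49 and -0.90 in CCI, a difference of -0.44 beside 0.06 in the IP and 0.43 in the input. All 5 thus had a higher input signal in CCI on every array, while their IP differences ran from -0.06 to 0.08. Each had 0 to 2 probes well above background in the input on its dimmest array. Of the 5, 3 were also the members with the lowest p in the input channel alone (chr19, chr9 and chr12), with adjusted p = 1.00 in limma for each.

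The 5 regions with higher ratios in CCI differed by 0.31 to 0.34. In chr3:133733601-133733962 (3 probes, all 45 nt and bright in both channels on every array) the ratio was -0.40, -0.39 and -0.25 in sham and 0.00, -0.07 and 0.02 in CCI. The groups were apart in both channels, with a sham IP of 3.48 ± 0.06 against 3.58 ± 0.04 for CCI (SD, n = 3) and a sham input of 4.13 ± 0.12 against 3.84 ± 0.04. This was the brightest of the 10 regions and the one whose probes were all measured. In chr6:98999251-99000927 (11 probes) the ratio was 0.41, 0.44 and 0.30 in sham and 0.66, 0.76 and 0.66 in CCI, beside 0.01 in the IP and -0.36 in the input. In chr1:213367060-213368727 (10 probes) it was -0.43, -0.18 and -0.15 in sham and -0.01, 0.18 and 0.06 in CCI, and the IP itself did not overlap, at 0.85 ± 0.02 and 0.98 ± 0.05 (SD, n = 3; limma adjusted p = 0.310). Both other regions lie on chromosome 5. The ratio in chr5:144841182-144842734 (8 probes) was 0.00, 0.09 and 0.18 in sham and 0.42, 0.25 and 0.55 in CCI. The ratio in chr5:152101693-152102396 (4 probes) was 0.13, 0.48 and 0.45 in sham and 0.61, 0.66 and 0.76 in CCI. In 3 of these 5 regions the IP of CCI lay above that of sham on every array, and in 3 the input lay below it. The limma adjusted p of the ratio was 1.00 in all 10 regions, and over the alternatives run it was 0.710 or more.

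**Figure D1:**
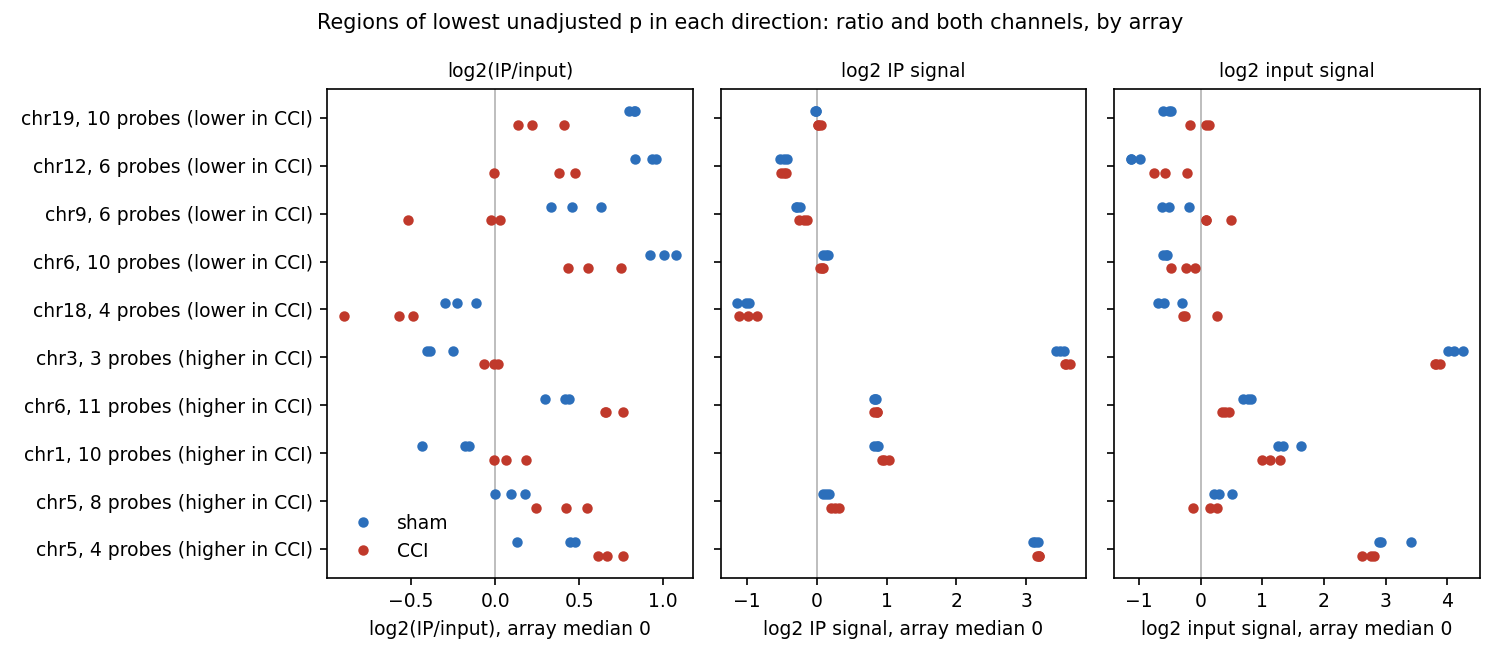
Ratio (left), IP signal (middle) and input signal (right) of the 5 lower and 5 higher regions on each array, in log2 with the array median at 0; each point is 1 array, blue for sham and red for CCI. The ratios of the groups are apart in every row, the IP points of the 5 lower regions lie close together (differences of -0.06 to 0.08), and their input points are apart (0.30 to 0.66).

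The same split of the channels held across the members. Over the 4276 members the difference in ratio had a Pearson correlation of -0.93 with the difference in input and 0.17 with the difference in IP. These are correlations across regions, which share arrays and are not independent replicates, and the ratio contains both channels. Between arrays of a group, a member's IP varied by a median SD of 0.036, its input by 0.160 and its ratio by 0.140. The correlation over members between arrays was 0.995 to 0.998 for the IP and 0.946 to 0.971 for the input. The input, which is not enriched for methylation, was the channel with the larger spread between arrays. Each animal was read on 1 array, so spread from the animals and from the arrays cannot be told apart.

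The direction of the ratio difference went with the input signal. Among the 856 members with the lowest input signal, the median difference in ratio was -0.07, and 83 members without overlap were lower in CCI against 6 higher. Among the 855 members with the highest input signal it was 0.07, with 5 lower and 76 higher. The IP difference was above 0 at the median in both sets, at 0.01 and 0.04, while the input difference was 0.03 in the first and -0.09 in the second. In the dimmest set the input difference turned to -0.04 without sham 3, was 0.00 without CCI 1 and 0.01 without sham 2, and was 0.11 without sham 1. In the brightest set it was -0.03 without sham 1 and -0.03 without CCI 3. In that set the median ratio difference was 0.01 without CCI 3 and 0.06 to 0.11 without any other array, so the value rested largely on that array. In the dimmest set it ran from -0.11 without sham 1 to -0.05 without sham 3. The splits were chosen after the values were seen, and the part of input brightness in the differences was not tested.

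**Figure D2:**
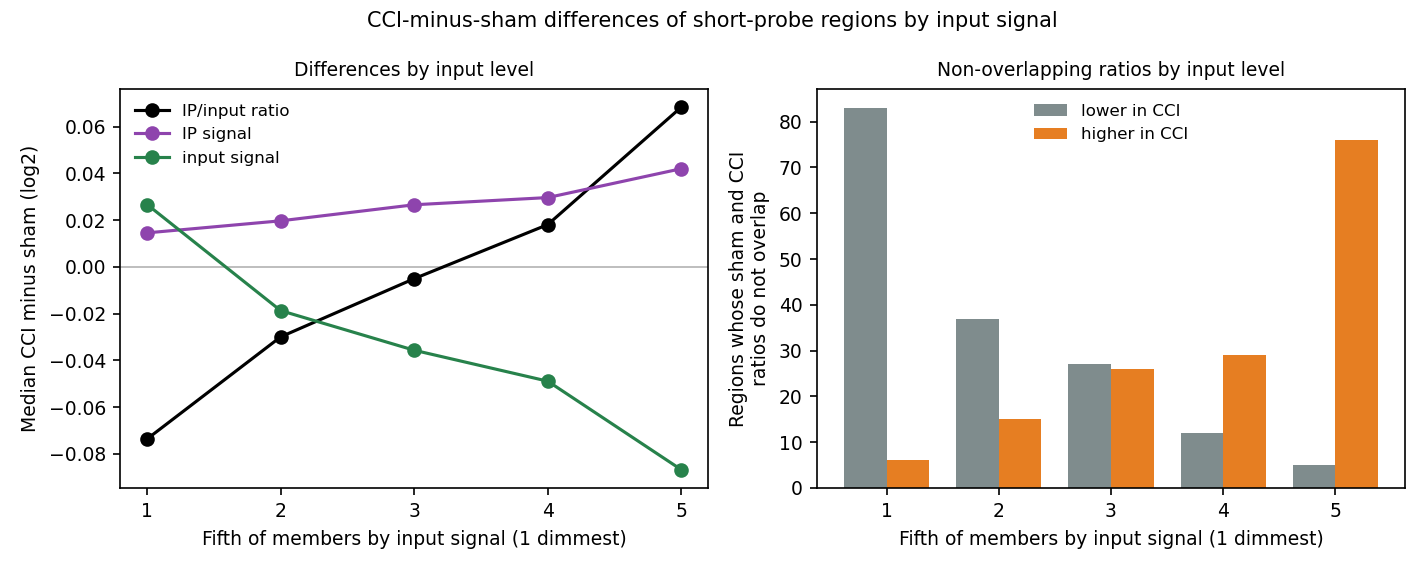
The 4276 short-probe regions in 5 sets of equal size by mean input signal. Left, the median CCI-minus-sham difference in log2 of the ratio (black), the IP (purple) and the input (green); right, the number of regions whose sham and CCI ratios do not overlap, lower (grey) or higher (orange) in CCI. From the dimmest to the brightest set the ratio difference goes from -0.07 to 0.07 and the counts from 83 lower and 6 higher to 5 lower and 76 higher.

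The IP channel was then read alone. Short-probe regions had a slightly higher IP signal in CCI: the median over members was 0.93, 0.92 and 0.94 on sham 1 to 3 and 0.96, 0.95 and 0.97 on CCI 1 to 3, without overlap. No member passed the test, with 0 of 4276 called by limma (0% of all regions) and a smallest adjusted p of 0.285. At an unadjusted p under 0.05, limma gave 569 members (13.3%), 533 higher and 36 lower in CCI, where it gave 10.6% of all regions (7.65% higher, 2.98% lower). The sham and CCI signals did not overlap in 931 members higher in CCI (21.8%) and 125 lower (2.92%), against 12.1% and 5.3% of all regions. The median member differed by 0.03, with 74.8% of members above 0, where all regions differed by 0.01 with 59.8% above 0. The sizes were small, with the middle 90% of members between -0.04 and 0.11. The count of 569 was 317 without sham 2, of which 286 were higher. More regions were higher than lower in CCI under the other scalings too, with 468 against 47 under scale normalization and 401 against 113 under quantile normalization. On the slide that held both groups, CCI 3 was above the mean of the sham arrays in 75.6% of members and in 66.7% of all regions, with medians of 0.04 and 0.03.

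Regions with under 1/3 of probes at 45 nt (long-probe) went the other way in the IP, with a median difference of -0.01, and 3.39% higher and 8.54% lower in CCI without overlap. Regions in between (mixed) lay on the same side as the members but nearer to 0, with a median of 0.01, and 11.2% higher and 5.04% lower. The gap in IP signal between short-probe regions and the other regions was 1.31, 1.30 and 1.31 on sham 1 to 3 and 1.31, 1.33 and 1.33 on CCI 1 to 3. The groups did not overlap before rounding (1.303 ± 0.00613 in sham, 1.324 ± 0.00997 in CCI; SD, n = 3), yet they did when only 45 nt probes were averaged (0.202 ± 0.00565 and 0.208 ± 0.00406). Over 45 nt probes the gap to long-probe regions alone stayed apart, at 0.340 ± 0.00705 in the sham arrays against 0.368 ± 0.00885, and so did the gap to mixed regions, at 0.158 ± 0.00087 against 0.162 ± 0.00333. The members' own IP medians over 45 nt probes were also apart, at 1.40, 1.38 and 1.41 on sham 1 to 3 and 1.43, 1.44 and 1.44 on CCI 1 to 3.

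The 3 members with the lowest p in the IP channel had the following values. In chr14:37601873-37603616 (11 probes) the IP was 0.08, 0.02 and 0.08 in sham and 0.25, 0.26 and 0.26 in CCI. The 3 CCI arrays lay together, above all sham arrays, and the difference was 0.20 ± 0.03 (SE; limma unadjusted p = 8.12e-05, adjusted p = 0.285). Its ratio was also higher on each CCI array, by 0.16 on average, with an adjusted p of 1.00 in limma. In chr10:91470588-91472086 (9 probes) the IP was 0.63, 0.56 and 0.58 in sham and 0.77, 0.76 and 0.81 in CCI, while the ratios of the groups overlapped. In chr1:89163856-89164246 (3 probes) it was 0.52, 0.47 and 0.56 in sham and 0.68, 0.80 and 0.76 in CCI, again with overlapping ratios. The difference of this chr1 region, 0.23, was 0.13 with normexp background correction, where it passed the test (limma adjusted p = 0.0437), 0.55 with probes bright in both channels and 0.58 with the median probe. When regions were summarised by the median probe, the chr14 and chr10 differences turned to -0.01 and -0.05.

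Some settings did call members in the IP. With only probes well above background in both channels on every array, limma called 8 of 4252 members (0.188%), all higher in CCI, where it called 55 of all 14779 regions tested (0.372%). The 8 rested on 1 to 5 probes each. Over all their probes, 2 of them (chr12:42749239-42750824 and chr4:83759114-83760747, with 1 bright probe each) had IP differences of -0.04 and -0.00. In all 8 the ratios of the groups overlapped on the same probes. The region with the most such probes, chr19:51845892-51847572 (5 of 11 probes), had an IP of -0.18, -0.13 and -0.25 in sham and 0.09, 0.12 and 0.16 in CCI (limma adjusted p = 0.0258). Its ratio on these probes was -1.05, -1.04 and -0.82 in sham and -1.06, -0.75 and -0.94 in CCI, with no separation. The region chr11:85425246-85427010 (3 of 10 probes) had an IP of 0.43, 0.47 and 0.39 in sham and 0.68, 0.72 and 0.76 in CCI, with ratios of -1.09, -0.64 and -0.32 against -0.78, -0.71 and -0.80. The region chr5:144841182-144842734, described above among the higher ratios, was also among them, with a sham IP of -1.02 ± 0.05 against -0.69 ± 0.06 for CCI (SD, n = 3) over 2 probes. With slide as a block limma called 12 members (0.281%), 4 higher and 8 lower in CCI, against 66 of all regions (0.412%), a difference that rests on CCI 3 alone. These regions were picked out after their values were seen.

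**Figure D3:**
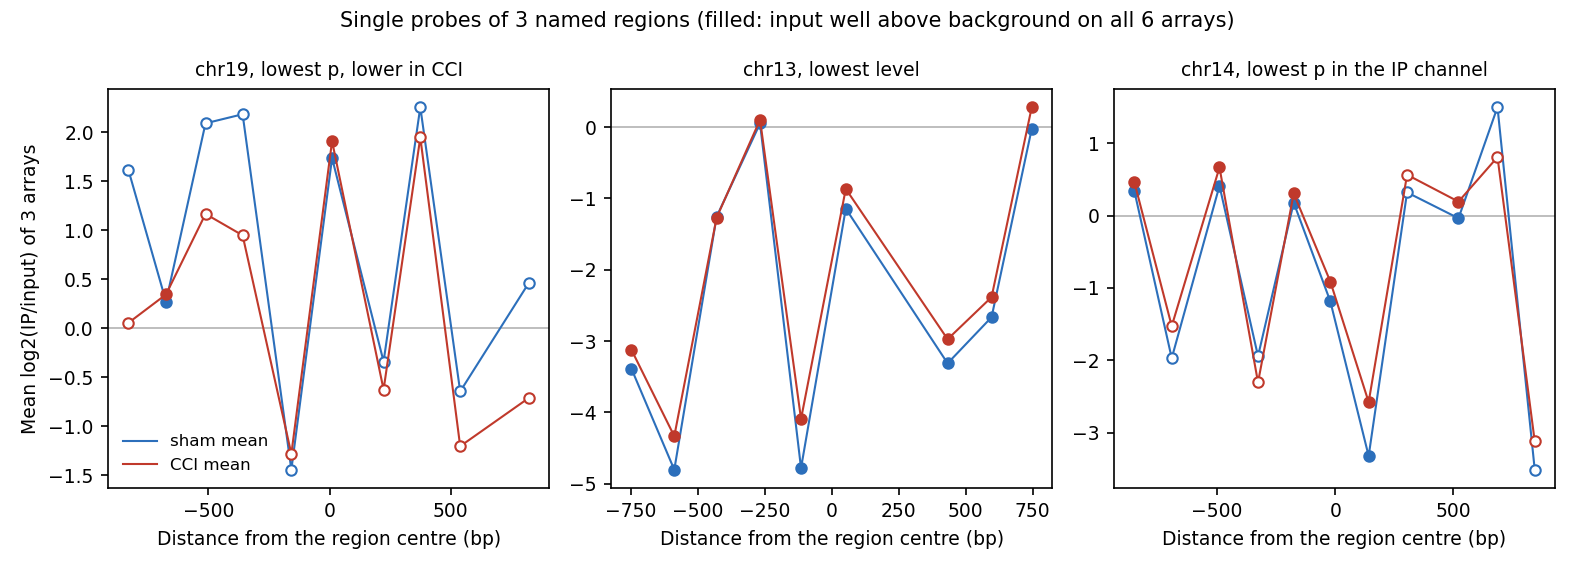
Mean log2(IP/input) of the 3 sham arrays (blue) and the 3 CCI arrays (red) at each probe of 3 regions, by distance from the region's centre in bp; filled points are probes whose input was well above background on all 6 arrays. On chr19 the filled points of the groups lie close together (0.27 and 0.35, 1.74 and 1.91) and the wide gaps are at open points, while on chr13 and chr14 most probes, filled ones included, are slightly higher in CCI.

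Single probes show where these differences lay. In the chr19 region, 2 of the 10 probes were well above background in the input on all 6 arrays, and their mean ratios were 0.27 and 1.74 in sham and 0.35 and 1.91 in CCI. Those probes were slightly higher in CCI, against the direction of the region. The probe at the region's left end was bright in the input on 1 array, and its ratio was 1.62 in sham and 0.06 in CCI. With only probes of bright input, the difference of this region was 0.01, that of chr6:98774813-98776570 was 0.01 and that of chr6:98999251-99000927 was -0.06. All 3 had the opposite sign but lay near 0, below their SE in the main fit (0.11 to 0.12). Under the same filter the difference of chr9:6007657-6009379 was -0.06, that of chr18:74964125-74964635 was -0.02 and that of chr5:144841182-144842734 was 0.10. The other higher regions kept more of theirs. The difference was 0.22 in chr3:133733601-133733962, 0.25 in chr1:213367060-213368727 and 0.17 in chr5:152101693-152102396, against 0.33, 0.34 and 0.33 over all probes. The chr12 region had no probe of bright input on all 6 arrays. With normexp background correction the 5 lower regions differed by -0.12 to -0.09.

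The level of the ratio set short-probe regions apart from the rest of the array, in sham and injured animals alike. The median over members was 0.14, 0.22 and 0.24 on sham 1 to 3 and 0.17, 0.17 and 0.26 on CCI 1 to 3. The other regions of chromosomes 1 to 20 had medians between -0.33 and -0.24. The gap was 0.476 ± 0.0627 (SD, n = 6 arrays), from 0.426 on CCI 2 to 0.597 on CCI 3. It was 0.311 ± 0.0469 to the regions with between 1/3 and 2/3 of probes at 45 nt (mixed) and 0.921 ± 0.125 to those with fewer (long-probe). The ratio was above 0 on all 6 arrays in 2186 members (51.1%), against 19.3% of the other regions, and below 0 on all 6 in 792 members (18.5%), against 54.1%.

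That gap went with the length of the probes. With only 45 nt probes averaged in every region, the gap to the other regions was 0.0280 ± 0.0299 (SD, n = 6). It ran from -0.03 on sham 1 to 0.06 on CCI 3, so within the spread of the arrays, and was above 0 on 5 arrays. Split by class, it was 0.0124 ± 0.0186 to mixed and 0.103 ± 0.0887 to long-probe regions. With only probes bright in both channels on every array the gap to the other regions was 0.0454 ± 0.0315, and with both conditions -0.000934 ± 0.0176. The gap to long-probe regions alone was then 0.146 ± 0.0879 and 0.0545 ± 0.0672. The channels kept part of theirs at equal length: with 45 nt probes the IP of members was 0.205 ± 0.00538 above the other regions and the input 0.184 ± 0.0346, each above 0 on all 6 arrays. Over 45 nt probes, short-probe regions were thus brighter in both channels, by nearly equal amounts. Over all probes the IP gap was the larger, at 1.31 ± 0.0137 against 0.876 ± 0.0639 in the input.

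**Figure D4:**
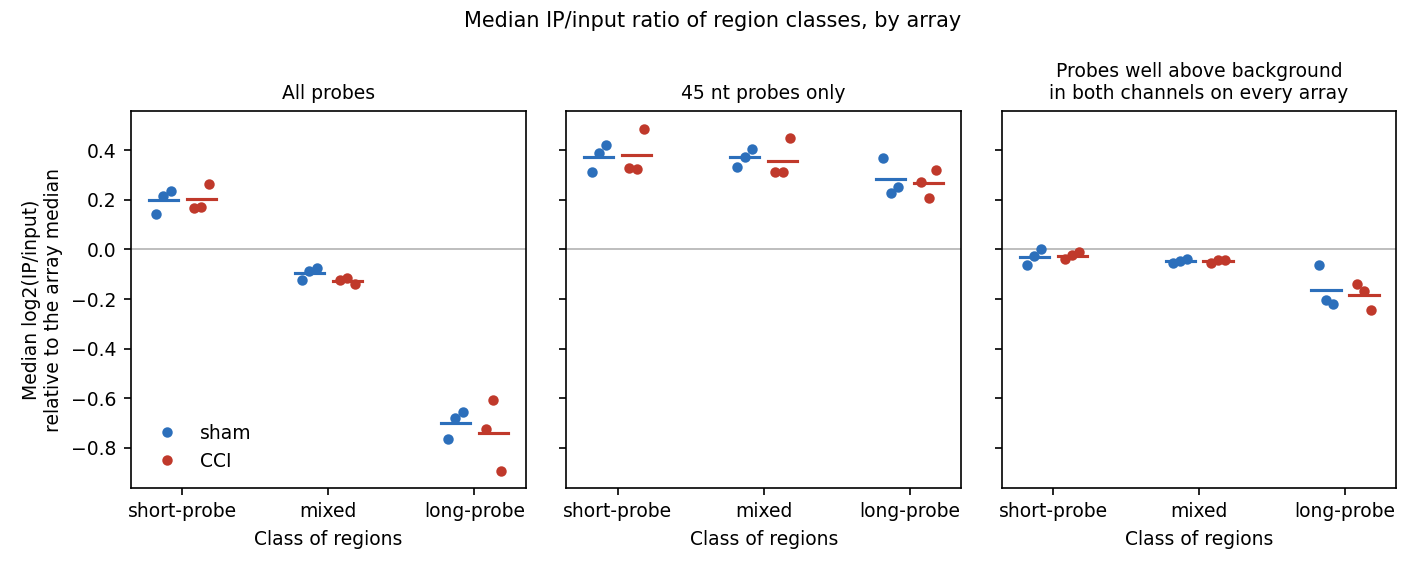
Median log2(IP/input) of short-probe, mixed and long-probe regions on each array (points; blue sham, red CCI; lines are group means), over all probes, over 45 nt probes alone, and over probes well above background in both channels. Over all probes the short-probe medians lie between 0.14 and 0.26, above those of both other classes; over 45 nt probes they overlap with those of mixed regions.

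Within the members, longer probes read lower. The median ratio of the members' 45 nt probes, averaged over the arrays, was 0.426 ± 0.0745 (SD, n = 6 arrays). It was 0.00305 ± 0.0324 at 47 nt, -0.680 ± 0.146 at 55 nt and -1.82 ± 0.391 at 60 nt. Between those lengths the IP went from 1.51 to -4.01 and the input from 1.12 to -1.35, so the IP was the steeper. The share of values well above background went the same way, from 93.1% to 26.5% in the IP and from 70.3% to 18.6% in the input. The comparison can be made inside single regions: in the 3862 members that held both kinds, 45 nt probes had a ratio 0.841 ± 0.120 above that of the longer probes beside them, and were higher in 75.9% of members. In the 1331 members with bright probes of both kinds that gap was 0.113 ± 0.0621, with 54.4% higher. The gap was smaller among bright probes, and the part of background signal in it was not tested.

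**Figure D5:**
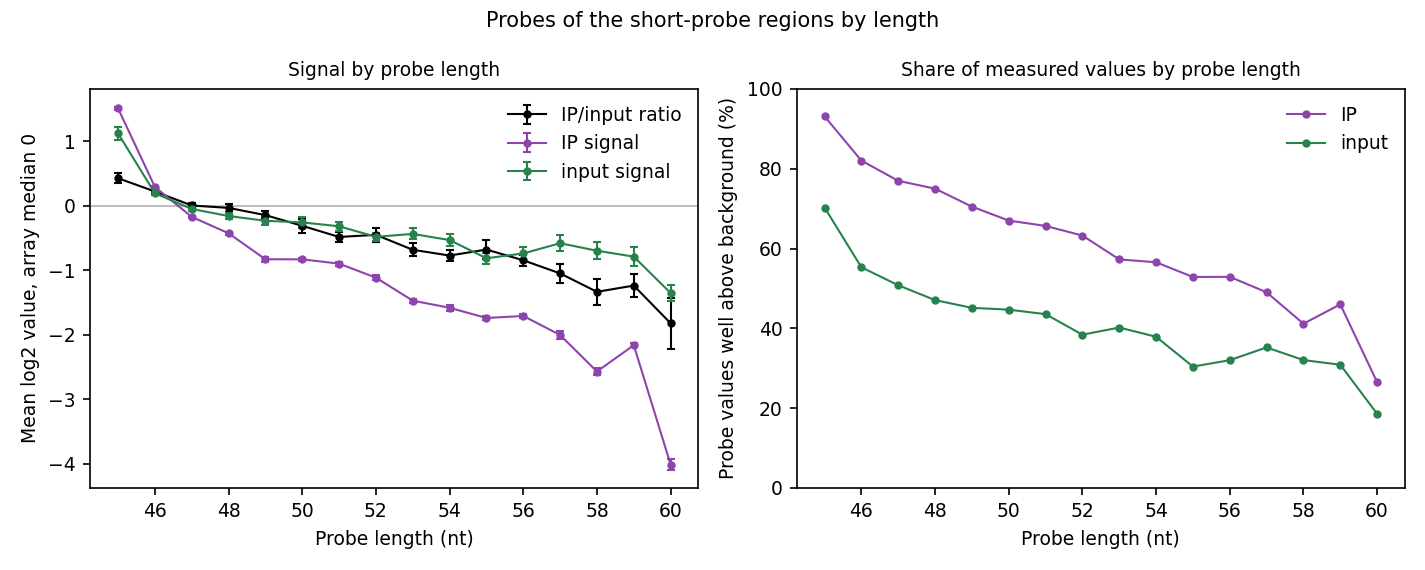
Left, median log2 ratio (black), IP (purple) and input (green) of the members' probes by length from 45 to 60 nt, array median 0. Points are means of these medians over the 6 arrays, with SD. Right, percent of probe values well above background in each channel. The ratio goes from 0.426 at 45 nt to -1.82 at 60 nt, and the share of input values well above background from 70.3% to 18.6%.

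A member's ratio rose with its share of 45 nt probes, the share that set membership. Because 45 nt probes read higher than longer ones within members, some rise follows from averaging the probes. It is no separate result on the regions. The median was 0.118 ± 0.0369 (SD, n = 6 arrays) in the 1632 members with up to 3/4 of probes at 45 nt and 0.391 ± 0.0857 in the 411 with 45 nt probes alone. Just inside the threshold, 680 members with 68.2% to 70% of such probes had a median of 0.0813. Just outside it, 686 regions at 2/3 exactly had 0.0497 and 492 regions with 63.2% to 65.7% had 0.00372, so no step marks the threshold. Members with 3 to 7 probes, with 8 to 13 and with 14 or more had medians of 0.232, 0.198 and 0.169, which lie within the arrays' spread of 0.0432 to 0.0637 of their neighbours.

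Across a region the ratio varied little, with its higher values toward both ends. The 45 nt probes of the 3609 members with 8 to 13 probes were read in windows of 200 bp. The median ratio of a window, averaged over the arrays, lay between 0.400 and 0.463 from 800 bp before to 800 bp after the region's centre. The IP lay between 1.39 and 1.61 and the input between 0.994 and 1.21, both highest 400 bp before the centre in the order of the coordinates. On each of the 6 arrays the windows 600 and 800 bp after the centre had higher ratios than those at 0, 200 and 400 bp. Their means over the arrays were 0.463 and 0.455, against 0.410, 0.400 and 0.404. Before the centre the means were 0.440 at 800 bp and 0.445 at 600 bp, against 0.413 at 400 bp and 0.419 at 200 bp. The left end was not higher on every array: sham 2 had 0.413 at 800 bp before the centre and 0.432 at 200 bp. Since the strand of the promoters was not used, upstream and downstream sides are mixed in this profile.

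Neighbouring probes told little about each other. The ratios of neighbouring 45 nt probes within members, 28871 pairs, correlated at 0.03 over the 6-array means, and at 0.03 over the 12989 pairs bright in both channels. Differences between members made up 1.54% of the variance of their 45 nt probes' ratios, and the SD between such probes inside a member was 1.13, against 0.422 for 1 probe between arrays. Successive members 1000 to 20000 bp apart correlated at 0.12 (573 pairs) and those 20000 to 100000 bp apart at 0.03 (1297 pairs). Those farther apart correlated at 0.01 (2386 pairs). Over the 4276 members the IP correlated with the input at 0.83. With the scatter of probes removed, the SD between members was 0.141.

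Among the 2170 members with 50% or more of their probes bright in both channels on every array, the ratio ran from -0.41 at the 10th to 0.68 at the 90th percentile of the 6-array means, with a median of 0.17. The 6 highest lay between 1.41 and 1.77. With only probes bright in both channels chr6:78008692-78010417 stood at 0.33, chr7:127364205-127364565 at 0.75 and chr7:138336435-138336791 at 1.16. The region chr7:138336435-138336791 (3 probes) had ratios of 1.68, 1.97 and 1.61 in sham and 1.73, 1.63 and 2.01 in CCI. Its middle probe, at 2.50 in sham and 2.65 in CCI, was not well above background in the input on any array, and its outer probes were at 1.25 and 1.51 in sham. The region chr19:14554298-14554986 (4 probes) had ratios of 1.40, 1.54 and 1.84 in sham and 1.58, 1.54 and 2.20 in CCI. The other 4 were chr7:127364205-127364565 (mean 1.55), chr3:117910193-117910633 (1.53), chr12:23198168-23199912 (1.42) and chr6:78008692-78010417 (1.41). Sham and CCI ratios overlapped in all 6, and neighbours in this order differed by less than the spread of the arrays. These means rest on 3 to 8 probes each, where the SD between 45 nt probes inside a member was 1.13. The part of probe scatter in these high levels was not tested. Of their 29 probes, 28 were 45 nt long.

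The 6 lowest of these members lay between -2.22 and -1.52. The region chr13:86911244-86912782 (9 probes, all bright in the input on every array) had ratios of -2.23, -2.52 and -2.35 in sham and -2.10, -2.09 and -2.03 in CCI, slightly higher on every CCI array (difference 0.30; limma adjusted p = 1.00). Its probes were not alike: 2 of them stood at -0.02 and 0.05 in sham and 4 between -4.80 and -3.31. The region chr15:5672589-5674071 (9 probes) had ratios of -2.01, -2.13 and -2.11 in sham and -1.81, -1.92 and -1.92 in CCI. The next were chr12:20076362-20076997 (mean -1.78), chr20:1617677-1619444 (-1.66), chr4:161044983-161046411 (-1.53) and chr19:52525415-52526975 (-1.52). With only probes bright in both channels chr12:20076362-20076997 stood at -0.68. After normexp background correction all 6 were nearer to 0, from -1.13 to -0.60. The input of these 6 stood between 1.60 and 4.36 and so well above the array median, while the IP ran from -0.34 to 2.11. In 4 of the 6 the IP of CCI lay above that of sham on every array, with the lowest limma p in chr19:52525415-52526975 (1.04, 0.99 and 1.08 in sham, 1.24, 1.23 and 1.18 in CCI; adjusted p = 0.285).

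That pattern held more widely for the IP: in the 856 members of lowest ratio the IP did not overlap and was higher in CCI in 26.4%, against 16.7% of the 855 members of highest ratio, 21.8% of all members and 12.1% of all regions. The median IP differences were 0.04 and 0.01. Split by input signal, the same share went from 14.0% in the dimmest set to 31.8% in the brightest. Split by IP signal, it went from 17.2% to 28.4%. The splits were chosen after the values were seen, and the shares were not tested against each other.

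The longest run of neighbouring members in the top 10% by ratio was 4 members at chr4:83866600-84210159, at 0.79, 1.01, 0.80 and 0.94, with 1 region that was no member among them. The mean of the 4 was 0.87, 0.89 and 1.04 on sham 1 to 3 and 0.65, 0.82 and 1.06 on CCI 1 to 3, so the groups overlapped. The longest run in the bottom 10% was 6 members spread over chr11:70448167-74209146, from -0.88 to -0.49, with 17 other regions among them. The mean of these 6 was -0.67 ± 0.07 for sham and -0.68 ± 0.03 for CCI (SD, n = 3). Whether either run is longer than members in random order would give was not tested. The widest member, chr10:62464547-62480801 (16255 bp), was also the one with the most probes, 86, and stood at 0.07, 0.13 and 0.10 in sham and 0.04, 0.08 and 0.22 in CCI, near the middle of the members. Its level turned to -0.29 with probes of bright input, -0.30 with both channels bright and -0.08 with loess, and was 0.34 with the median probe.

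Short-probe regions were unevenly spread over the chromosomes. They made up 41.8% of the regions of chromosome 19, 40.9% of chromosome 12 and 38.4% of chromosome 20, against 16.3% of chromosome 11 and 18.0% of chromosome 2. Their median ratio ran from 0.10 on chromosome 17 to 0.28 on chromosome 16, and the CCI-minus-sham difference of the group means ran from -0.04 on chromosome 9 to 0.04 on chromosome 15. On chromosome 19, which held the region of lowest p, the sham arrays had a median of 0.27 ± 0.07 against 0.24 ± 0.04 for the CCI arrays (SD, n = 3).

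The input channel alone gave 0 of 4276 members in limma (0% of all regions), with 47 (1.1%) at an unadjusted p under 0.05 against 1.37% of all regions. Of these, 20 were higher and 27 lower in CCI, against 0.537% and 0.83% of all regions. The groups did not overlap in 308 members (7.2%), 68 higher and 240 lower in CCI, against 6.47% of all regions (1.72% higher, 4.75% lower). The median member differed by -0.04 in the input, against -0.03 over all regions, and 37.2% of members were above 0, against 40% of all regions.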

How the data were processed

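Methylated and input DNA of 6 cords (3 sham, 3 CCI) were read on 2-colour Agilent promoter arrays. Per the file headers, the deposited intensity values came from Agilent Feature Extraction 11.0.1.1, background-subtracted, spatially detrended and scaled by 1 factor per dye, on build rn4. The deposited log10 ratio column was 0 for 3.64% to 15.8% of probes per array, most often on sham 1 (15.8%), CCI 3 (13.9%) and CCI 1 (11.8%). It matched the ratio recomputed from the 2 channels for 84.2% to 96.4% of probes. The recomputed ratios were used, so probes set to 0 in that column enter the region means here with a value. Per the labels, each array was a separate replicate of its group, read here as a separate animal.

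Here log2(red/green), and log2 of each channel, were centred on the array median, with no loess or quantile step. Probes with an outlier flag in either channel on any array were left out of all arrays (154 of the members' 41412). A region's value was the mean of its probes. All 16023 regions with at least 3 probes were fitted with lmFit and eBayes in limma 3.58.1 (R 4.3.3) for the contrast of CCI over sham, adjusted by Benjamini-Hochberg at 0.05, and members were counted afterwards. An exact permutation test of 3 against 3 cannot give a p below 0.1, so none was run. The limma step was tested on simulated data. Figures used matplotlib 3.10.9 under Python 3.11.15.

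The members and lists were chosen with earlier results of these data known. Named regions are, per direction, the 5 of lowest p among members without overlap, the 6 highest and 6 lowest among members with 50% or more of their probes bright in both channels, the 3 of lowest p in each channel, the longest runs in the top and bottom 10%, the groups of regions on each side of the threshold, and the member with the most probes and the widest span. Alternatives covered background correction, normalization, dim-probe filters, outlier flags, the region summary, the definition of the set, merging distance, replicate and slide blocks, moderation, array weights, the threshold and each array left out. Restriction to 45 nt probes, removal of a trend on probe length and a fit without the 3 arrays of dimmest input were added after seeing the data.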

Additional observations from a re-analysis of the deposited data

How the results depend on the processing

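No alternative called a short-probe region in the ratio: the count was 0 under all of them, and 0 to 0 with each array left out. In the ratio, 95 of 4276 members were at an unadjusted p under 0.05. Normexp gave 249, array weights 243 and the slide block 179, and each array left out gave 55 to 197. Other definitions of the set changed its size: all-45 nt regions alone gave 7 of 411, and over 1/2 of probes at 45 nt gave 179 of 7902. In the IP alone, 0 members became 6 with normexp (4 higher, 2 lower; 9 of all regions), 8 with probes bright in the input (all higher; 43 of all regions), 8 with both channels bright (all higher; 55), 1 with the median of probes (chr7:59753765-59755069, higher; 3) and 12 with slide as a block (4 higher, 8 lower; 66), and stayed 0 to 0 with each array left out. The unadjusted IP count, 569, was 93 with all-45 nt regions, 957 with over 1/2, 869 with array weights and 287 without the 3 arrays of dim input, and 317 to 682 with each array left out. The fit without the 3 arrays of dim input leaves CCI 2 alone in its group, assumed to vary like the sham arrays. It called 1 member in the input (chr12:23697146-23698141, 0.91; 14 of all regions), where each array left out gave 0 to 0, and moved the median ratio difference from 0.000205 to -0.0597. Slide as a block moved it to 0.0717, and each array left out gave -0.04 to 0.02.

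The gap to other regions, 0.476, was 0.161 with normexp, 0.149 with loess, 0.0590 with bright input, 0.0454 with both channels bright, 0.0280 with 45 nt probes and 0.0448 with the length trend removed, and 0.452 to 0.486 with each array left out. The gap of 45 nt to longer probes, 0.841, was 0.314, 0.331, 0.170, 0.113 and, trend removed, 0.155, and 0.797 to 0.860 with each array left out. The cause was not tested.

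Replicate numbers were shared by the labels. Deviations of same-numbered arrays correlated at 0.16, 0.23 and 0.01, and 1 of 3 sham arrays correlated best with its own number, so the numbers were not taken to pair the samples. The replicate block gave 0 regions in the ratio, with 114 at an unadjusted p under 0.05, and 0 in each channel.

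None of the named differences passed the test in the main fit. Counted over pairs of a named difference and an alternative, 10 pairs turned in sign. The IP difference of chr1:89163856-89164246 passed the test with normexp (limma adjusted p = 0.0437). With bright input probes the ratio differences of chr19:24753230-24754933, chr6:98774813-98776570 and chr6:98999251-99000927 were 0.00993, 0.00870 and -0.0582, and with both channels bright 0.0112, 0.00994 and -0.0569. The chr19 input difference was -0.0160 and -0.0144. With the median of probes the chr14 and chr10 IP differences were -0.00818 and -0.0513. Counted over pairs of a named level and an alternative, 155 pairs moved by less than the spread of the arrays and 76 by more. Dim input limits the ratios: on sham 1, CCI 1 and CCI 3, 50.6% to 59.9% of the members' input probes were well above background.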
